A study of Caenorhabditis elegans with 8 samples.

Results

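The nematode *C. elegans* is wrapped in a cuticle built mostly of collagens, and 7 collagen genes of the late larval and adult cuticle are described here: *bli-1*, *bli-2*, *rol-6*, *col-7*, *col-19*, *col-62* and *col-119*. They were taken by name, though with earlier results of these data known, and are 7 of the 25509 genes in the deposited table. Whole animals of the wild-type strain Bristol N2, kept at 20 °C, were used for every group, so no group carried a mutation or a drug treatment. Populations were synchronised with hypochlorite, hatched without food and then fed in liquid culture. Embryos were collected straight after that treatment. L1-L2 larvae, taken 6 to 20 h into culture, were a mix of 5 volumes of L1, 5 of L2 and 2 of animals in the moult between them. L3-L4 larvae, taken at 28 to 42 h, were mixed in the same proportions, and young adults were taken at 50 to 54 h. From each of the 4 stages total RNA was sequenced beside RNA pulled down with J2, an antibody against double-stranded RNA (dsRIP). Each library was scaled to its own size. The comparison of the 2 thus gives recovery relative to other transcripts, not the share of a transcript that the antibody recovered.

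That makes 8 samples by the labels, each with 3 numbered columns in the table. Whether the 3 are separate cultures is not stated, so each sample counted as 1 replicate, and each mean ± SD below is over its 3 columns. Values are FPKM, fragments per kilobase of gene, scaled to the size of each library. The library size implied by that scaling ran from 348064 to 914442 reads per column. These are whole animals: a change in the number of epidermal cells and a change in RNA per cell cannot be told apart. Markers fitted the labelled stages in broad terms. The summed FPKM of 8 early embryonic genes was 104 ± 25.6 in embryos and 3.99 ± 6.92 in young adults, and that of 6 yolk genes was 15.3 ± 7.50 in late larvae but 4726 ± 3254 in young adults. The summed FPKM of 8 epidermal genes other than collagens was 252 ± 28.9 in embryos, 404 ± 47.5 in L1-L2 larvae and 128 ± 24.8 in young adults. In embryos and in young adults 1 of the 8 had 0 reads. *grd-10* alone stood at 5.95, 292 and 58.3 at these 3 stages, so the rise of the sum in larvae was not shared by the list. The next most abundant, *ajm-1* (58.3, 36.7 and 20.2) and *elt-3* (37.9, 32.1 and 21.4), had their highest means in embryos.

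The epidermis secretes a new cuticle before each moult, under the old one, and each stage draws on its own part of a large collagen family. Many of these genes come on briefly in each moulting cycle, whereas others are kept for a single stage. The BLI collagens belong to the struts that join the layers of the adult cuticle, and their loss gives fluid-filled blisters. ROL-6 shapes the body, and its dominant allele makes animals roll. COL-19 is the standard reporter of the adult epidermis. It is switched on at the transition from larva to adult by the zinc-finger protein LIN-29, at the end of the heterochronic pathway that times larval development.

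The spans of the genes are given in build ce10, counted from 1, and cover exons and introns. *bli-1* (C09G5.6) lies at II:10708901-10712066, *bli-2* (F59E12.12) at II:5651392-5652408 and *rol-6* (T01B7.7) at II:8733000-8734264. *col-19* (ZK1193.1) lies at X:421708-422777 and *col-119* (C53B4.5) at IV:8978808-8979797. *col-7* (C15A11.5, I:7401672-7402753) and *col-62* (C15A11.6, I:7403338-7404349) are neighbours, 584 bp apart with 0 other features between them. The spans of *bli-1*, *bli-2* and *col-119* overlap those of *dph-2*, *zyg-1* and *pdzd-8*. Whether strand was used in counting, and where reads that match several collagens went, is not given in the sources used here, so reads from the overlapping genes or from close relatives cannot be separated. Of the 7 spans, 0 overlapped a region of the deposited list of editing-enriched regions (EERs), stretches of genome where the study found clustered editing of dsRNA. The distance to the nearest EER ran from 15299 bp for *col-119* to 107163 bp for *bli-2*.

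Embryos gave few reads of these genes. In total RNA 5 of the 7, namely *bli-1*, *rol-6*, *col-7*, *col-19* and *col-62*, had 0 reads, *bli-2* had 1 and *col-119* had 3. For a gene at 0 reads, 3 reads over the 3 columns, the limit that a count of 0 allows, would have been an FPKM of 0.502 for *bli-1* and 1.57 for *col-62*. In embryo dsRIP no gene had more than 1 read. Limits and intervals here cover counting error only.

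**Figure D1:**
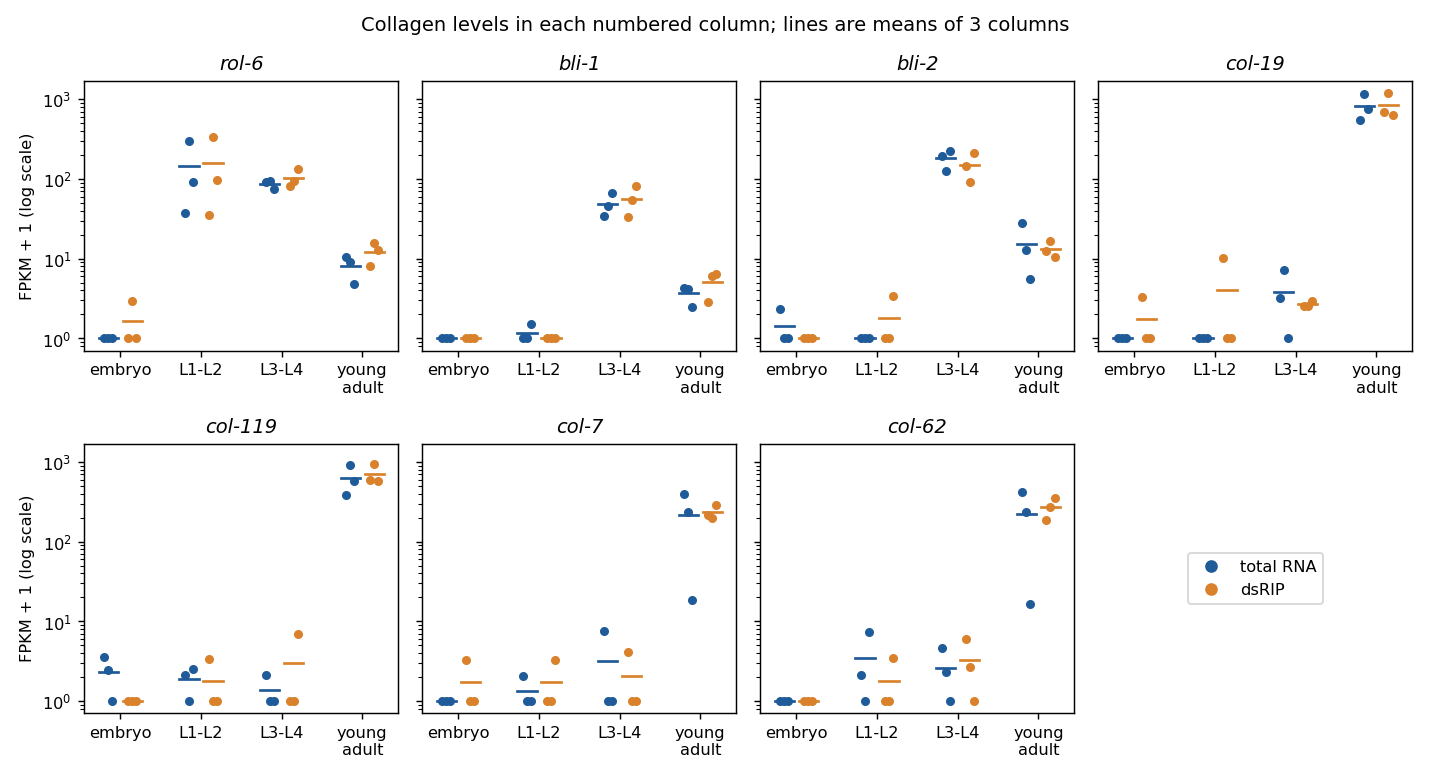
FPKM + 1 (log axis) of the 7 collagens at the 4 stages, in total RNA and dsRIP, where each point is a numbered column and each line the mean of 3. *rol-6* is high in both larval stages, *bli-1* and *bli-2* in L3-L4 larvae (means of 48.2 and 181 FPKM in total RNA), and the other 4 in young adults, where their means run from 215 to 818 FPKM.

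*rol-6* was the first of the 7 to be detected in quantity. In total RNA of L1-L2 larvae its FPKM was 36.6, 302 and 91.5 in columns 1, 2 and 3 (144 ± 140.3), and in L3-L4 larvae it was 90.8, 93.7 and 74.7 (86.4 ± 10.3). The 2 larval stages overlapped, so the data go against calling *rol-6* a late larval gene: it was already high in the early larvae. The L1-L2 mean rested on column 2, and without it the mean was 64.1, which turned the L3-L4 minus L1-L2 difference on the log2(FPKM + 1) scale from -0.73 to 0.43. In young adults *rol-6* stood at 9.62, 8.23 and 3.81 (7.22 ± 3.04), below every larval column.

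The blister genes were at or near 0 reads until the late larvae. *bli-1* had 1 read in total RNA of L1-L2 larvae, in column 3, and then an FPKM of 33.6, 44.6 and 66.4 in L3-L4 larvae (48.2 ± 16.7). *bli-2* had 0 reads in L1-L2 larvae and an FPKM of 196, 125 and 221 in L3-L4 larvae (181 ± 49.7). All 3 late larval columns of both genes lay far above all early larval columns. In young adults *bli-1* was back to 3.34, 3.22 and 1.49 (2.68 ± 1.04) and *bli-2* to 26.9, 11.9 and 4.57 (14.5 ± 11.4). Per length, *bli-2* exceeded *bli-1* in each L3-L4 column of total RNA, by a ratio of 5.83, 2.81 and 3.34.

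The 4 adult collagens were at the limit of detection in all larvae. In total RNA of L3-L4 larvae *col-19* had 7 reads, *col-7* 6, *col-62* 4 and *col-119* 1. The 6 reads of *col-7* were all in column 1, as was the read of *col-119*. In young adults *col-19* reached an FPKM of 548, 1159 and 747 (818 ± 312) and *col-119* 383, 908 and 580.5 (624 ± 265). Both were high in all 3 columns, with column 2 the highest, and the ratio of *col-119* to *col-19* stayed between 0.699 and 0.783. *col-7* gave 396, 233 and 17.4 (215 ± 190), and *col-62* gave 420, 238 and 15.5 (224 ± 203). These chromosomal neighbours were both low in column 3, and their ratio was 0.943, 0.979 and 1.12. Each was nevertheless higher in every young adult column than in any larval or embryonic column.

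In order of their young adult means in total RNA, the genes were *col-19*, *col-119*, *col-62*, *col-7*, *bli-2*, *rol-6* and *bli-1*. Neighbours in that order overlapped in their columns except for *rol-6* and *bli-1*. In L3-L4 larvae the order was *bli-2*, *rol-6* and *bli-1*, each separated from the next, followed by the 4 adult collagens, which overlapped with each other. Among all genes of the table *col-19* ranked 207th from the top in young adults, *col-119* 246th, *col-62* 557th and *col-7* 583rd. *bli-2* ranked 719th in L3-L4 larvae.

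Between adjacent stages, 1 sample a stage allows no test, and a gene was counted as higher or lower where FPKM + 1 differed at least 4-fold. From embryos to L1-L2 larvae 1 of the 7, *rol-6*, was higher in total RNA, while 14.4% of the 20628 features tested were. *rol-6* had 257 reads against 0, which makes it at least 86.3-fold higher when 3 reads stand in for 0. Its log2(FPKM + 1) difference of 7.18 was 6.02 without column 2 of the L1-L2 larvae. With non-overlapping columns required as well, the count stayed at 1, against 9.87% of features. *col-62* also had more reads in L1-L2 larvae, 5 against 0, but its columns overlapped.

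From L1-L2 to L3-L4 larvae 2 of the 7 were higher, *bli-2* and *bli-1*, against 3.3% of features. *bli-2*, at 390 reads against 0, was at least 114-fold higher. *bli-1*, at 310 reads against 1, was 273-fold higher, with a 95% counting interval of 48.6 to 10805. Both also kept their columns apart, which 1.13% of features did. *col-19*, on 7 reads against 0 and with overlapping columns, lay just under 4-fold at 1.93 on the log2 scale. Among 127 genes, each of these and the 126 other cuticle collagens tested, *bli-2* had the largest difference of this step and *bli-1* the fourth.

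From L3-L4 larvae to young adults all 7 genes passed 4-fold, 4 upward and 3 downward, where 7.21% of features were higher and 6.26% lower. All 7 kept their columns apart, as 4.2% of features did upward and 2.71% downward. *col-119*, with 1163 reads against 1, was 1315-fold higher (95% counting interval 236 to 51998). *col-19*, with 1577 reads against 7, was 255-fold higher (123 to 635). *col-62* was 127-fold higher (49.2 to 468) and *col-7* 86.9-fold higher (39.6 to 238). *col-119* and *col-19* had at least 305 reads in every young adult column, whereas *col-7* and *col-62* had 12 and 10 reads in column 3. The log2(FPKM + 1) difference was 6.07 for *col-7* and 6.42 for *col-62*. Without column 3 of the young adults it was 6.61 and 6.97, without their column 1 it was 5.29 and 5.6, and without column 1 of the L3-L4 larvae it was 7.76 and 7.09. For *col-19* the difference, 7.75, was 8.60 without column 2 of the L3-L4 larvae and 7.3 without their column 3.

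The other 3 genes were lower in young adults by similar factors. The ratio of young adults to L3-L4 larvae in summed reads was 0.0584 for *bli-1* (95% counting interval 0.033 to 0.0963), which is 17.1-fold lower. It was 0.0832 for *rol-6* (0.0477 to 0.136) and 0.087 for *bli-2* (0.0579 to 0.126), and the 3 intervals overlapped. The log2(FPKM + 1) difference of *bli-2*, -3.56, was -4.30 without column 1 of the young adults and -3.16 without their column 3. *bli-1* and *bli-2* did not return to their L1-L2 levels. *bli-2* was still at least 9.95-fold higher in young adults than in L1-L2 larvae, and *bli-1* was 15.9-fold higher (2.47 to 668), on 16 reads against 1.

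**Figure D2:**
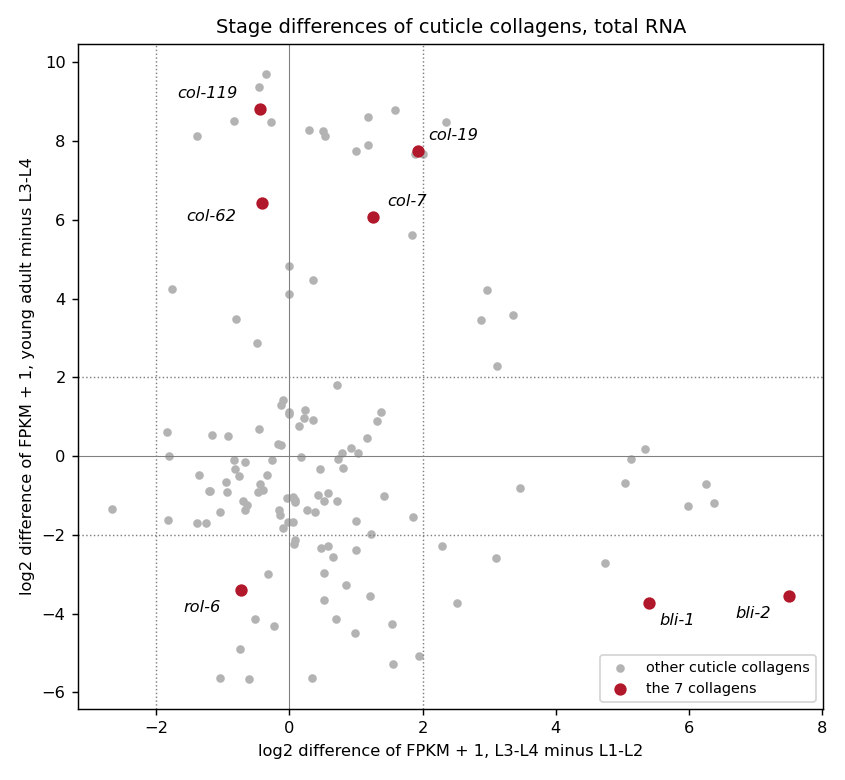
Log2 difference of FPKM + 1 in total RNA for the step from L1-L2 to L3-L4 larvae (horizontal axis) and from L3-L4 larvae to young adults (vertical axis), for the 7 genes and 126 other cuticle collagens; dotted lines mark 4-fold. *bli-1* and *bli-2* lie at the lower right, the 4 adult collagens at the top and *rol-6*, at -0.73 and -3.41, at the lower left.

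The dsRIP samples showed the same genes at the same steps. *rol-6* was higher in L1-L2 larvae than in embryos (1 of 7, against 14.4% of features), *bli-1* and *bli-2* in L3-L4 than in L1-L2 larvae (2 of 7, against 3.91%), and the 4 adult collagens in young adults than in L3-L4 larvae (4 of 7, against 7.82%). The remaining 3 were lower in that last step, against 7.38% of features. Each of these genes also kept its columns apart, as 8.65%, 1.3%, 4.9% and 2.85% of features did in the same order. *col-19* in young adult dsRIP was 688, 1191 and 639 FPKM (839.5 ± 305) and *col-119* was 589, 939.9 and 578 (702 ± 206). *col-7* was 216, 197 and 289 (234 ± 48.6) and *col-62* 188, 271 and 349 (269 ± 80.6). For these neighbours no dsRIP column was low in the way that column 3 of total RNA was.

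*bli-1*, *bli-2* and *rol-6* had overlapping columns in dsRIP and total RNA at the stages where they were high. *bli-1* had an FPKM of 32.6, 53.7 and 80.5 in L3-L4 larvae (55.6 ± 24) and *bli-2* 146, 90.0 and 214 (150.2 ± 62.3). *rol-6* had 34.4, 339 and 97.7 in L1-L2 larvae (157 ± 161) and 80.7, 93.1 and 133 in L3-L4 larvae (102 ± 27.2). Column 2 of the L1-L2 larvae was thus the highest in both molecules. Same-numbered total RNA and dsRIP columns of L1-L2 larvae deviated from their means together, at correlations across 2559 genes of 0.50, 0.37 and 0.20.

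Relative recovery by the antibody was compared with limma on log2(FPKM + 1) over the 4 stage pairs. With p-values adjusted over all 20628 features by Benjamini-Hochberg, 0 of the 7 collagens passed 0.05, while 4.23% of features did (2.11% higher and 2.12% lower in dsRIP). Of the 19091 genes alone, leaving out the EERs, 144 were higher and 438 lower. At an unadjusted p under 0.05 the count was 1 of 7, against 23.1% of features. That gene was *rol-6*, with a log2 ratio of dsRIP to total RNA of 0.42 ± 0.14 (SE, limma adjusted p = 0.168), and it was above 0 in the means of all 3 stages in which it was expressed. Its embryo pair held 1 read in dsRIP and 0 in total RNA, and without that pair the estimate was 0.31 (limma adjusted p = 0.258). A ratio that misses the threshold does not show that the genes were recovered alike, and with 4 pairs the SE ran from 0.14 to 0.45.

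The other estimates lay less than their SE from 0, except that of *col-19*. They were 0.11 ± 0.25 for *bli-1* and -0.04 ± 0.28 for *bli-2* (limma adjusted p = 0.841 and 0.952). *col-19* gave 0.60 ± 0.45, *col-7* 0.16 ± 0.31, *col-62* -0.10 ± 0.29 and *col-119* -0.00 ± 0.40 (limma adjusted p = 0.481, 0.807, 0.885 and 0.997). For the 4 adult collagens these fits also use the embryo and larval pairs, where each sample held 0 to 7 reads. For *bli-1* and *bli-2* they also use the embryo and L1-L2 pairs, where each sample held 0 or 1 read. In the young adult pair alone the ratio of summed reads was 1.11 for *col-19* (95% counting interval 1.02 to 1.20), 1.22 for *col-119* (1.12 to 1.33), 1.04 for *col-7* (0.896 to 1.20) and 1.16 for *col-62* (1.01 to 1.34). The columns of the 2 molecules overlapped for each of the 4, so none of these ratios exceeded the spread between columns. For *rol-6* the L1-L2 pair gave 1.39 (1.16 to 1.67). In the L3-L4 pair *bli-1* gave 1.17 (0.994 to 1.38), *bli-2* 0.822 (0.698 to 0.966) and *rol-6* 1.14 (0.941 to 1.38), and all 4 pairs had overlapping columns.

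**Figure D3:**
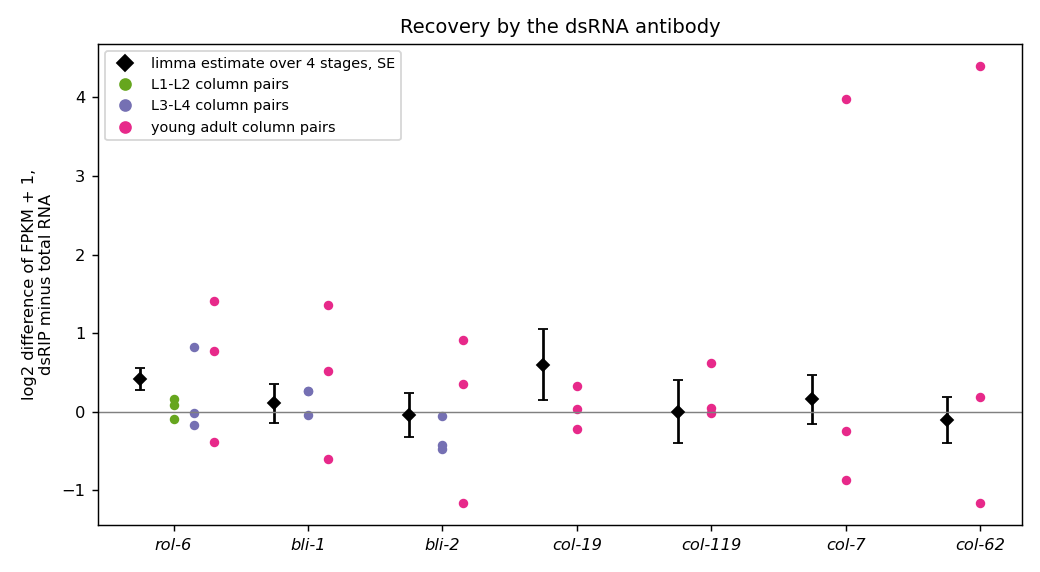
Log2 difference of FPKM + 1 between dsRIP and total RNA. Black diamonds are the limma estimates over 4 stages with their SE, and coloured points are same-numbered column pairs of stages with at least 10 total RNA reads. The estimates run from -0.10 to 0.60, and the column 3 pairs of *col-7* and *col-62* in young adults stand apart at 3.98 and 4.4.

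The young adult columns differed from each other in more than these collagens, a comparison made after the values were seen. Across total RNA columns 1, 2 and 3 the summed FPKM of the 6 yolk genes was 968, 6565 and 6645, and that of 12 sperm genes was 1748, 2408 and 365. In dsRIP they were 4554, 7130 and 3138 for yolk and 1263, 2508 and 1576 for sperm. Summed FPKM of the early embryonic genes was 0, 0 and 12.0 in total RNA. Epidermal genes other than collagens gave 157, 113 and 115, of which *grd-10* alone gave 68.6, 49.3 and 57.0. Column 3 of total RNA, where *col-7* and *col-62* were low, thus had the lowest sperm value and the highest embryonic one. The embryonic 12.0 came from low values of *pes-10* (6.14), *end-1* (4.44) and *tbx-38* (1.41), while 5 of the 8 genes had 0 reads. Its yolk sum was the highest, though close to that of column 2. Body wall muscle genes, at 1590, 3107 and 1124, were lowest there. The part of these differences in the low collagen values was not tested. In the same column, 20 of 45 other cuticle collagens with an FPKM of at least 50 (44.4%) were at least 4-fold below both other columns, against 0 of 45 in columns 1 and 2 and 0 of 49 in each dsRIP column. Over all 19091 genes tested, 672 were that far below in column 3 of total RNA, 131 in column 1 and 389 in column 2. In column 3, 646 were that far above both other columns. The 19091 genes did not have to reach an FPKM of 50 in young adults, so their counts are not like for like with the 20 of 45.

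**Figure D4:**
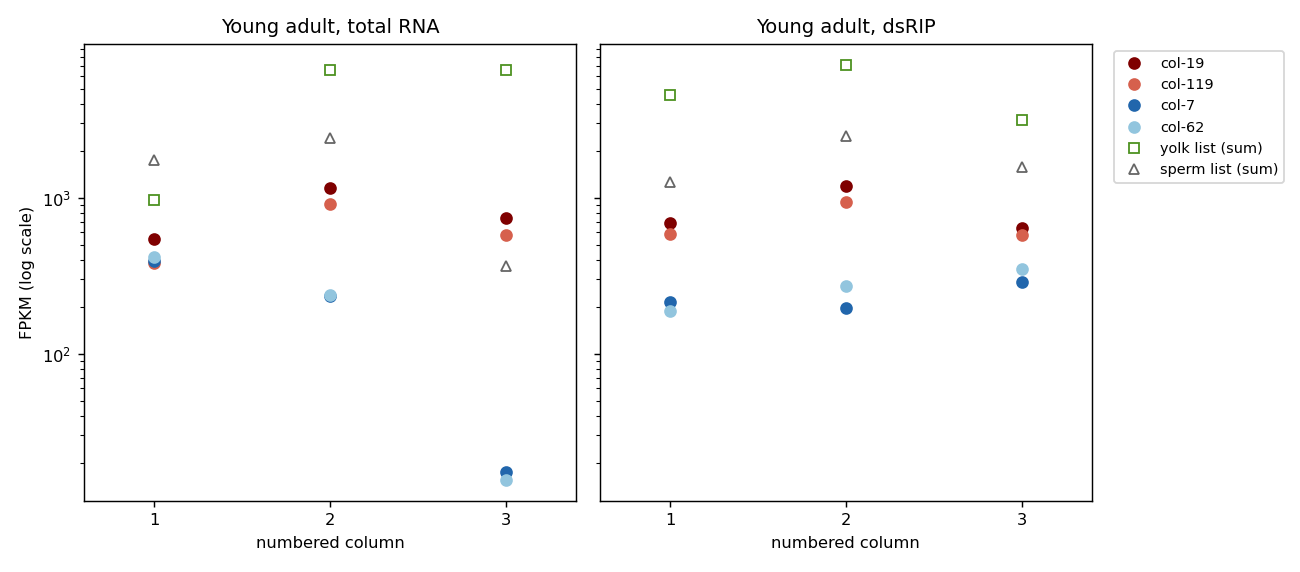
FPKM (log axis) of the 4 adult collagens in each young adult column of total RNA (left) and dsRIP (right), with the summed FPKM of the yolk and sperm lists. *col-7* and *col-62* are at 17.4 and 15.5 in column 3 of total RNA, where *col-19* and *col-119* are at 747 and 580.5, and the yolk sum is lowest in column 1 (968).

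The numbers of the young adult columns did not tie the 2 molecules together as they did in larvae. Same-numbered columns correlated at 0.09, 0.43 and 0.04 across the 2559 genes, while total RNA column 1 with dsRIP column 3 gave 0.21 and total RNA column 3 with dsRIP column 1 gave 0.22. The genes share libraries and depth, so these correlations describe the columns and carry no p-value. The per-column ratios of *col-7* and *col-62* in young adults therefore do not compare matched preparations with certainty.

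The 7 genes made up more of the summed collagen level in young adults than at earlier stages. Of the summed FPKM of these and the 147 other genes with a *col* symbol, they made up 0.0851% ± 0.0908 of total RNA levels in embryos, 1.33% ± 1.09 in early larvae, 2.49% ± 0.75 in late larvae and 5.52% ± 1.05 in young adults. Young adult columns gave 4.94%, 6.73% and 4.88%, above all larval columns, while early larval columns (0.459%, 2.55% and 0.98%) overlapped late larval ones (2.75%, 1.64% and 3.07%). The sum leaves out other body-shape and furrow collagens. Among those 154 genes *col-19* ranked 18th and *col-119* 21st in young adults, so other collagens were more abundant. The most abundant of them over the 8 samples were *col-106*, at 4906 FPKM in young adults, *col-160*, at 1426, and *col-122*, at 2304.

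The other cuticle collagens were highest at different stages. Of the 147, 103 reached an FPKM of at least 10 in total RNA, and 39 of those were highest in young adults, 37 in late larvae, 18 in early larvae and 9 in embryos. Of the 126 tested, 26 were at least 4-fold higher and 26 at least 4-fold lower in young adults than in L3-L4 larvae. Over all features 7.21% and 6.26% were. The median log2 difference of the 126 was -0.70, against 0.00 over all features. Among those with an FPKM of at least 50, *col-178*, *col-140* and *col-122* had the largest gains (9.70, 9.36 and 8.80 on the log2 scale) and *col-54*, *col-10* and *col-41* the largest losses (-5.65, -5.63 and -5.63). The value of *col-119*, 8.82, lay between those of *col-140* and *col-122*. From L1-L2 to L3-L4 larvae 17 of 126 were higher and 1 lower, where 681 and 1160 of the 20628 features were. *col-38*, *col-138* and *col-71*, which had 0 reads in L1-L2 larvae, gave 6.37, 6.25 and 5.98, below *bli-2* at 7.51. *col-115*, *col-65* and *col-41* had the lowest values, -1.25, -1.20 and -1.05.

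Collagens of the circumferential furrows were lower in young adults, where the 4 adult collagens were high. All 6 were at least 4-fold below L3-L4 larvae there (median log2 difference -4.41), against 6.26% of features. None of the 6 was higher, against 7.21%. *dpy-2*, *dpy-10* and *dpy-7* were also strong in embryos, at 361, 349 and 306 FPKM, where the 7 had few reads. From L1-L2 to L3-L4 larvae none of the furrow genes passed 4-fold either way (median 1.60), whereas *bli-1* and *bli-2* did. Of 12 other body-shape collagens 9 were lower in young adults and 0 were higher (median -2.81), against the same 6.26% and 7.21%. Their most abundant members were *dpy-17*, at 1831 FPKM in embryos and 9.29 in young adults, *ram-2*, at 653 in L1-L2 larvae and 99.4 in young adults, and *sqt-3*, at 899.6 in embryos and 23.3 in young adults. From L1-L2 to L3-L4 larvae 2 of the 12 were higher and 2 lower, where 681 and 1160 of the 20628 features were. The 2 higher, named after their values were seen, were *rol-1* (5.28 on the log2 scale) and *lon-3* (2.56).

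Of 10 genes that process collagen, 2 were at least 4-fold higher and 0 lower in L1-L2 larvae than in embryos. Of the 20628 features 2973 (14.4%) and 2399 were. Between the larval stages 0 of the 10 differed by 4-fold, where 681 features were higher and 1160 lower. From L3-L4 larvae to young adults 0 of 10 were at least 4-fold higher and 1 was lower (median -0.65), against 7.21% and 6.26% of features. The protein disulphide isomerase genes *pdi-2*, *pdi-3* and *pdi-1*, which fold secreted proteins, stood at 282, 245 and 159 FPKM in young adults and 853, 392 and 245 in L3-L4 larvae. Genes of moulting and the apical matrix were mostly lower in that step, like *bli-1* and *bli-2*. In young adults 11 of 13 were lower and 0 higher (median -3.42), against 6.26% and 7.21% of features. *noah-1*, *noah-2* and *mlt-8*, the most abundant of them, were under 4-fold apart between the larval stages, at 1.25, 1.52 and 0.66 on the log2 scale. In dsRIP against total RNA 0 genes of any of these lists passed the limma threshold, and the median log2 ratio was 0.15 for the other cuticle collagens, -0.05 for furrow and 0.11 for body-shape collagens, -0.12 for processing genes and -0.12 for moulting genes, against -0.08 over all features. At an unadjusted p under 0.05 in limma, 15 of the 126 other cuticle collagens, 0 of 6 furrow and 3 of 12 body-shape collagens, 5 of 10 processing genes and 4 of 13 moulting genes were counted, against the 23.1% of features above.

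The regulators of the larval-to-adult switch were read in total RNA at the same stages. *lin-29* had an FPKM of 0.456 ± 0.416 in embryos, 2.58 ± 0.644 in early larvae, 16.8 ± 9.36 in late larvae and 7.07 ± 4.08 in young adults. *mab-10*, which encodes a cofactor of LIN-29, was at 0, 0.864 ± 1.5, 16.2 ± 10.7 and 3.64 ± 1.68 at these stages. The means of both were highest in L3-L4 larvae, the stage of *bli-1* and *bli-2*, while *col-19* was highest at the next stage. The L3-L4 columns of *lin-29* were 22.2, 5.99 and 22.2, and those of *mab-10* 13.5, 7.11 and 28.0. Column 2 was the lowest for both and for *bli-2*, while *bli-1* was lowest in column 1. The young adult columns of *lin-29*, 11.3, 6.66 and 3.21, overlapped its L3-L4 columns, so that order did not exceed the spread. Those of *mab-10*, 2.12, 5.44 and 3.35, lay below its L3-L4 columns.

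Other genes of the timing pathway were chosen after their values were seen. *hbl-1*, a zinc-finger gene that holds back later fates, was highest in embryos (144 ± 27.4) and stood at 15.2 ± 1.84, 7.01 ± 1.60 and 1.99 ± 0.977 after that. *lin-14* was at 108 ± 8.29, 93.2 ± 20.0, 38.9 ± 14.3 and 17.7 ± 6.00 in the order of the stages. *lin-28*, an RNA-binding regulator of early larval fates, was at 42.1 ± 17.8, 37.1 ± 3.89, 7.24 ± 1.96 and 20.1 ± 8.72. *blmp-1*, a transcription factor of the epidermis, went from 90.8 ± 16 in embryos to 4.98 ± 2.34 in young adults. *lin-46*, which acts against *lin-28*, was at 0, 2.44 ± 2.14, 7.82 ± 6.71 and 1.38 ± 1.36. *lin-41*, which acts just upstream of *lin-29*, was at 51.3 ± 5.45 in young adults, its highest stage. Of the 13 regulators, 2 were at least 4-fold higher and 1 lower from L1-L2 to L3-L4 larvae, where 681 and 1160 of the 20628 features were. From there to young adults 0 were higher and 2 lower, against 1488 and 1292 features. Of the 13, 0 passed the limma threshold in dsRIP against total RNA and 1 had an unadjusted p under 0.05 (median log2 ratio -0.03).

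**Figure D5:**
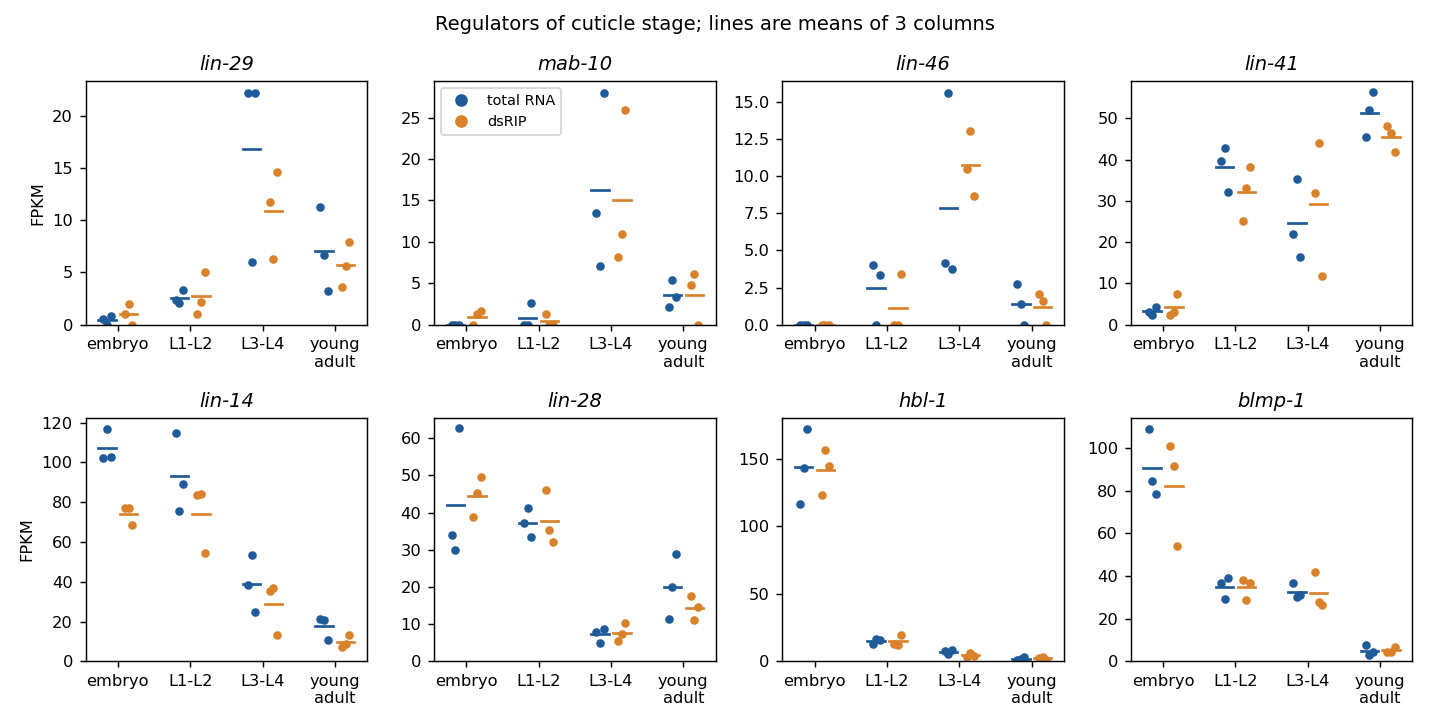
FPKM of 8 regulators of cuticle stage in each column of total RNA and dsRIP at the 4 stages, with lines at the means. The means of *lin-29* and *mab-10* are highest in L3-L4 larvae (16.8 and 16.2 in total RNA, with overlapping young adult columns for *lin-29*), those of *hbl-1* and *blmp-1* in embryos (144 and 90.8).

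Among themselves the genes formed 3 patterns over the 8 samples. As Pearson correlations of log2(FPKM + 1), *bli-1* and *bli-2* gave 0.98, the 4 adult collagens 0.97 to 0.99 with each other, and *rol-6* 0.42 at most with any of the rest. The 8 samples are 4 stages with a total RNA and a dsRIP sample each, so these values describe few distinct points.

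Genes whose levels ran most like each collagen were taken from 15211 genes with an FPKM of at least 10 in some sample, by the same correlation over the same 8 samples. For *rol-6* they were *rol-8* (0.996), *sqt-1* (0.995) and *Y42G9A.2* (0.994), of which the first 2 are body-shape collagens as well. *bli-1* was followed most closely by *col-110* (0.986), *mab-10* (0.976) and *clec-70* (0.969), and *bli-2* by *col-110* (0.988), *clec-70* (0.969) and *mab-10* (0.966). The yolk genes *vit-6* (0.998) and *vit-3* (0.997) and the collagen *col-106* (0.997) were nearest to *col-7*. *col-140* (0.994), *vit-4* (0.993) and *vit-2* (0.993) were nearest to *col-119*. Nearest to *col-19* were *C52E4.7* (0.997), *M28.9* (0.995) and *col-181* (0.994), and to *col-62* *col-20* (0.995), *B0379.7* (0.995) and *C31H1.5* (0.994). *C52E4.7*, *M28.9*, *B0379.7* and *C31H1.5* had only 31, 56, 29 and 26 reads in young adult total RNA and few before. Their values thus rest on the young adult samples. The columns of *C52E4.7* there, 35.5, 3.91 and 1.51 FPKM, did not follow those of *col-19*, 548, 1159 and 747. In single columns the likeness held in some cases and not in others. In L1-L2 total RNA *rol-8* had 29.1, 253 and 159 FPKM and *sqt-1* 10.5, 216 and 48.1, both highest in column 2 as *rol-6* was. In young adult total RNA column 3, by contrast, *col-7* was at its lowest, at 17.4 FPKM, where the yolk sum was at its highest, at 6645.

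Genes of the germline and of yolk were, like the adult collagens, far higher in young adults than in L3-L4 larvae. Over all 20628 features 7.21% were at least 4-fold higher and 6.26% lower in that step. All 6 yolk genes, made in the intestine, were at least 4-fold higher (median log2 difference 7.80), led by *vit-6*, *vit-2* and *vit-5* at 1592, 1139 and 799.7 FPKM. Sperm genes were higher in 10 of 12 cases (median 4.23), with *msp-33*, *msp-31* and *msp-36* at 369.6, 327 and 207. Germline and oocyte genes were higher in 7 of 10 (median 4.37), with *cpg-2* and *cpg-1* at 442 and 308; *pgl-1*, at 145 against 64.3 in L3-L4 larvae, was not among the 7. Body wall muscle genes (0 of 8 higher or lower, median -0.73) and epidermal genes other than collagens (0 of 7 tested higher and 3 lower, median -0.78) did not share that direction. The part of cell composition in the collagen differences was not tested.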

How the data were processed

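The deposited table holds FPKM, computed by the authors per feature for 25509 genes and 1541 editing-enriched regions in 24 columns, per the file headers. Per the submitters' processing notes, Novoalign, SAMtools 0.1.19 and bedtools 2.19.0 were used with build ce10, and libraries were made with a stranded kit per the labels' protocols. The gene annotation and counting tool are not given in the sources used here. The deposited region list gives a position and a score for each region, a whole number of unstated meaning, and only positions were used. All columns were mapped to samples, and 0 were left over. For 1 sample titled L4-L4 the stage given among its characteristics, L3-L4, was used.

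The spacing of low FPKM values let whole reads be recovered, with 100.0000% of non-zero values within 0.05 of a whole number. These reads served for counting intervals (exact, 95%) and for the limit of 3 reads over the 3 columns. They were not used for a count model.

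The 3 columns of a sample were averaged. A feature was kept (20628 of 27050) when its FPKM was 1 or more in 2 or more samples, and all 7 collagens were. The contrast of dsRIP with total RNA was a limma 3.58.1 fit (R 4.3.3) to log2(FPKM + 1), blocked by stage, with a trended prior and Benjamini-Hochberg adjustment at 0.05. Its p-values set the difference between dsRIP and total RNA against the variation of that difference from stage to stage. On log2(FPKM + 1) fold changes of low genes are understated. Stages were compared without a test. The fit was tested on simulated data, whose settings were made easier after the first version, with smaller changes, recovered none of them at the threshold, so changes of modest size can be missed. Tables were handled with Python 3.11.15, pandas 2.3.3, numpy 2.4.6 and scipy 1.17.1. Symbols of 25092 genes came from an annotation of another build, used for names only.

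The members and lists were chosen with earlier results of these data known. Genes named are the 7, the 3 genes most like each, the 3 most abundant of each list of collagens, processing, moulting and cell type genes, and the 3 largest and smallest differences of other cuticle collagens. Regulators other than the most abundant were added to these after their values were seen. Alternatives are given in the closing section, and 2 of them (FPKM of the summed reads, and young adult total RNA without column 3) were chosen after seeing the data. Promoter motifs were planned and not analysed here.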

Additional observations from a re-analysis of the deposited data

How the results depend on the processing

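Of 20628 features, 435 were higher and 438 lower in dsRIP (144 and 438 of the genes alone). These counts were 272 and 237 with no filter and 410 and 248 after quantile normalisation, and 719 were lower with a filter of FPKM 10. They were 13 and 10 without the stage block and 106 and 30 without the trend. With the 24 columns as units they were 1285 and 2157, and with column number as a replicate block within stage 1016 and 1457. Leaving out a stage pair or a numbered column gave 7 to 258 higher and 5 to 261 lower. Under each of these settings 0 of the 7 collagens passed the threshold. The cause was not tested.

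The sign of uncalled dsRIP ratios turned for *col-62* (0.00 at pseudocount 5, and 0.15 over the 24 columns and with the block) and *col-119* (0.05 at pseudocount 5 and 0.10 after quantile normalisation). With a stage pair or column left out the ratios ran from -0.01 to 0.22 for *bli-1*, -0.42 to 0.37 for *bli-2*, -0.22 to 0.51 for *col-7*, -0.15 to 1.0 for *col-19*, -0.23 to 0.19 for *col-62* and -0.38 to 0.41 for *col-119*. For *rol-6* they ran from 0.21 to 0.65. Same-numbered columns correlated at 0.20 to 0.59 in embryos and larvae, but at 0.04 to 0.43 in young adults, so the numbers were not taken to pair the samples.

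In total RNA, *col-62* joined *rol-6* as higher in L1-L2 larvae than in embryos at pseudocount 0.5 and at a 2-fold threshold (2 genes each), and leaving out a column gave 1 to 2. From L1-L2 to L3-L4 larvae 3 genes were at least 4-fold higher in place of 2 at pseudocount 0.5, with equal medians, after quantile normalisation, from summed reads and without column 1 or 3, *col-19* being added at 2.01 to 2.72 on the log2 scale. At 2-fold there were 4, *col-7* and *col-19* being added. In dsRIP there were 3 without column 1 (*col-119* added) or column 3 (*col-62* added). At a 2-fold threshold in dsRIP, 2 genes (*rol-6* and *col-19*) were higher in L1-L2 larvae than in embryos. There *col-19* was at 1.22 on the log2 scale, on 4 reads against 1 and with overlapping columns. From L3-L4 larvae the young adult counts stayed at 4 higher and 3 lower under all alternatives run. Few reads limit the lower levels: the adult collagens had 0 to 7 reads per larval sample.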

Other observations

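In column 3 of young adult total RNA the other cuticle collagens farthest below both other columns, chosen after their values were seen, were *col-60*, *col-120*, *col-39* and *col-91*. In columns 1, 2 and 3 *col-60* had an FPKM of 195, 161 and 6.67, and *col-120* had 392, 189 and 8.73. *col-39* had 208, 325 and 9.84, and *col-91* had 76.4, 82.4 and 3.02. All 4 were above 40 FPKM in every young adult dsRIP column. The body-shape collagen *rol-1*, also chosen after its values were seen, was likewise lower in that column, at 96.6, 44.4 and 7.04 in total RNA and 28.5, 45.2 and 46.7 in dsRIP.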
